A study of Mus musculus with 4 samples.

Results

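Imprinted genes were followed in mouse embryonic stem cells with and without the miR-290-295 microRNA cluster. The set held 45 genes of 21 known mouse imprinted loci, taken by gene symbol, with no threshold on a measured value, out of 55421 gene identifiers in the deposited count table. Of the 45, 42 had at least 1 count and 35 passed the low-count filter, which left 14427 genes for the test. The cells were E14 embryonic stem cells of 129/Ola background, of blastocyst origin, kept on gelatin with serum and the cytokine LIF. One group was wild type (WT, n = 2 libraries) and the other carried a knockout of the miR-290-295 cluster (KO, n = 2 libraries), and the labels give no further allele or agent for either. Poly(A) RNA was read by QuantSeq, a 3' tag method, and the tables hold raw counts per gene. The libraries are described as biological duplicates, but nothing in the labels says if the KO pair came from 1 clone or more, so a p-value sets a difference against the spread of these 4 libraries alone.

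An imprinted gene is expressed mainly or wholly from the copy inherited from one parent. DNA methylation set in the egg or the sperm at a control region marks the copies, and zinc finger proteins such as ZFP57, with the maintenance methyltransferase, protect that mark in the early embryo. Several imprinted loci encode growth regulators of the fetus and the placenta, and cultured embryonic stem cells are known for variable imprinted expression. Below, "paternal" and "maternal" name the copy that textbook knowledge gives as the active one. The parental origin of the reads was not measured here, so a level is the sum over both copies.

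Imprinted loci and the deleted cluster both encode microRNAs, and their mature sequences are shown to set the seeds side by side. The sequences are from RefSeq (GRCm38.p6), with the seed, bases 2 to 8, in capitals. The deleted cluster lies on chromosome 7, and 3 of its members share the seed AAGUGCU. The imprinted examples lie inside Mest on chromosome 6, inside H19 on chromosome 7 and inside Meg3 on chromosome 12.
miR-291a-3p, deleted cluster: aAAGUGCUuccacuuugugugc
miR-294-3p, deleted cluster: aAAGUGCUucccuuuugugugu
miR-295-3p, deleted cluster: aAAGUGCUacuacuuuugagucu
miR-335-5p, inside Mest: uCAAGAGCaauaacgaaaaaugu
miR-335-3p, inside Mest: uUUUUCAUuauugcuccugacc
miR-675-5p, inside H19: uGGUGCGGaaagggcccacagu
miR-675-3p, inside H19: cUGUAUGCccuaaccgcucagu
miR-770-5p, inside Meg3: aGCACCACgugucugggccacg
The comparison covered 145 mature microRNAs from 77 genes of the H19-Igf2, Mest-Copg2, Peg3, Dlk1-Meg3 and Snrpn-Ube3a loci. Of these, 0 shared a 7-base seed with any of the 17 mature microRNAs listed for the cluster locus. Likewise, 0 held AAGUGC in bases 1 to 8, against 6 of the 17. The 17 include those of Mir290b and Mir292b, annotated on the minus strand, and miR-290b-3p is among the 6. For Mir292 only miR-292a-5p was listed, so its other arm was not compared. Sfmbt2 hosts 119 microRNA genes on its own strand in GENCODE vM21, 14 of them Mir467 genes. The seeds of these were not analysed here, and the counts of 0 do not cover them.

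A site for the AAGUGC seed in a messenger RNA is GCACTT. It was looked for on the transcript strand, in the longest 3' UTR annotated per gene. It was present in 14 of the 29 tested imprinted genes with an annotated 3' UTR (48.3%, median length 1612 bases) and in 4347 of 12495 tested genes overall (34.8%, median length 1331 bases). The 7-base form AGCACTT was in 34.5% of the imprinted genes and 18.4% of all, and GCACTTA in 17.2% and 8.41%. These are descriptions of the sequence, and the imprinted 3' UTRs were the longer ones. The 6-base match was in 2 of 5 genes that were higher in KO (Grb10 and Impact), in 1 of 4 that were lower (Peg10) and in 11 of 20 that did not pass the test. It was not in the searched 3' UTRs of Peg3, Zdbf2 or Sfmbt2. The sites of the 2 called genes on chromosomes 11 and 6 are shown with the match in capitals, because one gene was higher in KO and the other lower.
Grb10 3' UTR site, chromosome 11: cttcccctttctGCACTTAaatacctgaca
Peg10 3' UTR site, chromosome 6: tcttttattttAGCACTTccaacaaaaatg

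The protein ZFP57 is known to bind the methylated hexamer TGCCGC at imprint control regions. RefSeq promoter windows, from 250 bases before to 50 bases after a start site, were searched for TGCCGC on both strands, which appears as GCGGCA where it lies on the other strand. At least 1 window held it in 13 of the 36 imprinted genes with a window (36.1%), against 3527 of 27025 genes in the whole table (13.1%). By window the shares were 14 of 54 (25.9%) and 3813 of 32851 (11.6%). The imprinted windows also held more CpG dinucleotides, with a median of 15 against 7. The windows of 3 genes that the results below turn on are printed in the direction of transcription, with each match in capitals. Mest (chr6:30737800-30738099, plus strand) held 2 matches, the upstream window of Zdbf2 (chr1:63200108-63200407, plus strand, 72.9 kb before its other start) held 3, and Peg3 (chr7:6730370-6730669, minus strand) held 0, all on GRCm38.p6. Of the windows not printed, those at the other start of Zdbf2 (chr1:63273019-63273318) and at another start of Mest (chr6:30733256-30733555) held 0 matches each. A further Mest window (chr6:30737803-30738102), which nearly coincides with the printed one, held 2.
Mest: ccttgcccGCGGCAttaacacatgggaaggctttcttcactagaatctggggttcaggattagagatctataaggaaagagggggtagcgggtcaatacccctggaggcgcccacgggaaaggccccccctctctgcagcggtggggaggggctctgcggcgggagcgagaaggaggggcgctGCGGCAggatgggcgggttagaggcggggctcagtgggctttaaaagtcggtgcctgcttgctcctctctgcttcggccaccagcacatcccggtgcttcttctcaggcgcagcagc
Zdbf2, upstream start: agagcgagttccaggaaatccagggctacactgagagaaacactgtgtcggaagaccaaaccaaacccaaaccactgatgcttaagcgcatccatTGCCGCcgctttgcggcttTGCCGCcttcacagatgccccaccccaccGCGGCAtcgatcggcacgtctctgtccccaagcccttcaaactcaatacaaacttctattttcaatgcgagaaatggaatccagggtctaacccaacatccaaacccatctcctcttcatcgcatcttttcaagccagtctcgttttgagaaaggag
Peg3: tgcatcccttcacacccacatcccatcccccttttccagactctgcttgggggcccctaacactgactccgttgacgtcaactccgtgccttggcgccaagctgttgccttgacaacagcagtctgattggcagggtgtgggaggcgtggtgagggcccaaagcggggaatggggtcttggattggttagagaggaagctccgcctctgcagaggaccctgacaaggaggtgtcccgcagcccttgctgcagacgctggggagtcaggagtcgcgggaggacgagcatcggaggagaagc
A match is a description of these letters. The windows lie at start sites and were not chosen to cover the imprint control regions. A window with 0 matches therefore does not say that the locus lacks the hexamer. Binding and methylation were not measured.

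The libraries held between 9925557 and 12726123 counts. The 7 plus-strand microRNA genes of the cluster, as a check of the labels, held 0 and 0 counts in the KO libraries (exact Poisson upper limit 3.69 each) and 88 (70.6 to 108) and 39 (27.7 to 53.3) in WT libraries 1 and 2. Mir290b, annotated on the minus strand of the same locus, held 4 counts in KO library 1 and 0 in the other 3 libraries. All values per library below are a gene's counts scaled to a library total of 1000000 (CPM), and fold changes are log2 of KO over WT with the standard error (SE), from edgeR's quasi-likelihood test with Benjamini-Hochberg adjustment over all 14427 genes at 0.05. The summed level of 10 embryonic stem cell markers was 3500 and 3530 CPM in KO and 3370 and 3640 CPM in WT, with Fgf4 higher and Klf4 and Utf1 lower in KO. Pou5f1, which has processed pseudogenes that can share reads, lay between 31.5 and 37.7 CPM. Primitive endoderm markers summed to 95 and 75.5 CPM in KO and 314 and 296 CPM in WT, and 9 of 12 were lower in KO (the 6 with the smallest p were Col4a1, Dab2, Lama1, Gata6, Pdgfra and Sox17), with none at 0. Fibroblast markers summed to 18.5 and 29.7 CPM in KO and 45.5 and 69.4 CPM in WT, with 3 of 5 tested lower (Col5a1, Thy1 and Col1a1) and Col3a1, Postn and Prrx1 at 0 in every library. Trophoblast markers summed to 43.2 and 57.1 CPM in KO and 24.3 and 45.7 CPM in WT, with 0 of 6 tested called by edgeR (2 at an unadjusted p under 0.05) or by DESeq2, and Prl3d1 at 0 throughout. Beside these marker counts, edgeR called 7.42% of all tested genes higher, 4.96% lower and 12.4% in either direction.

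Of the 35 imprinted genes tested, 6 were higher and 4 lower in KO, and 25 did not pass. The higher genes were Peg3, Zdbf2, Impact, Sfmbt2, Grb10 and H19, and the lower genes were Phlda2, Peg10, Igf2r and Slc22a18. Among all tested genes 7.42% were called higher, 4.96% lower and 12.4% in either direction, beside 28.6% of the imprinted genes in either direction. The median log2 fold change of the imprinted genes was -0.16, against -0.01 for all tested genes. The KO and WT libraries did not overlap for 19 of the 35 (9 with KO above, 10 below), or 54.3%, against 58.0% of all tested genes, so by this measure the imprinted genes lay near the background. Without KO library 2 the number of lower genes was 1. In bulk RNA, fewer cells of a type and less RNA per cell cannot be told apart, and this holds for each value below.

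By the copy known to be active, 4 of 18 tested paternally expressed genes were higher and 1 lower, with a median of 0.18 and 27.8% called. Of 15 tested maternally expressed genes, 2 were higher and 3 lower, with a median of -0.17 and 33.3% called, beside the 12.4% of all tested genes. The libraries of the groups did not overlap for 55.6% of the paternal and 53.3% of the maternal class, near the 58.0% of all tested genes. The 2 genes whose active copy depends on the isoform, Gnas and Inpp5f, did not pass in edgeR (1 at an unadjusted p under 0.05) or DESeq2. Both directions occurred among genes of either parental class, and the difference between the classes was not tested.

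**Figure D1:**
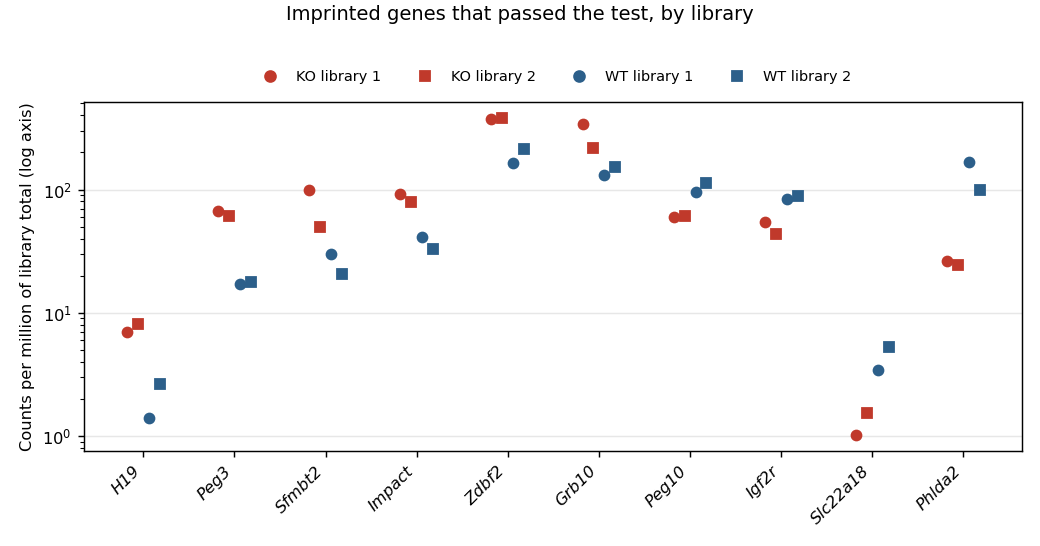
CPM of the library total (log axis) of the 10 imprinted genes that passed the test, in KO library 1 and 2 (red) and WT library 1 and 2 (blue), ordered by fold change from H19 to Phlda2. In each gene both KO points lie on one side of both WT points, which is how Peg3 (61.1 and 66.9 against 17.0 and 17.7) and Phlda2 (24.5 and 26.1 against 98.8 and 167) read.

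Among paternally expressed genes, Peg3 showed the lowest adjusted p of the higher genes. Peg3 (chr7:6703892-6730431, minus strand, GRCm38) encodes a large zinc finger protein. Its level was 66.9 and 61.1 CPM in KO libraries 1 and 2 and 17.0 and 17.7 CPM in WT libraries 1 and 2. The KO libraries were alike and lay far above the WT libraries, which were alike too (log2 1.88, SE 0.19, adjusted p = 0.000638). Its neighbour Usp29, a ubiquitin peptidase family gene that starts 147 bases away on the other strand, was at 4.01 and 2.89 CPM in KO and 2.55 and 1.71 CPM in WT (log2 0.68, SE 0.47, adjusted p = 0.388), and did not pass. Zim1, the maternally expressed zinc finger gene beside Peg3, held 1 and 3 counts in KO and 5 and 2 in WT and was not tested.

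Zdbf2 (chr1:63273265-63314576, plus strand) encodes a zinc finger protein whose imprinted activity starts from an upstream transcript in the early embryo. It was at 373 and 382 CPM in KO and 164 and 212 CPM in WT. Both KO libraries were above both WT libraries (log2 1.01, SE 0.16, adjusted p = 0.00472). The 889 tested genes of chromosome 1 had a median log2 fold change of 0.27, and their median difference of WT library 1 from WT library 2 was -0.27, whereas 18 of the other 19 chromosomes had a median fold change within 0.09 of 0. With the chromosome's median subtracted, the log2 difference of Zdbf2 was 0.74. Whether the shift of chromosome 1 has a part in the result was not tested.

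Impact (chr18:12955852-12992950, plus strand) encodes an inhibitor of GCN2, the kinase that slows translation when amino acids are short. Its level was 91.5 and 79.0 CPM in KO and 41.4 and 32.7 CPM in WT. The lowest KO library was above the highest WT library (log2 1.20, SE 0.19, adjusted p = 0.0058).

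Sfmbt2 (chr2:10370510-10595253, plus strand) encodes a Polycomb group protein and is known as a paternally expressed gene of the extraembryonic lineages. It was at 98.5 and 49.5 CPM in KO and 30.1 and 20.7 CPM in WT. Both KO libraries were above both WT libraries, and KO library 1 was well above KO library 2 (log2 1.54, SE 0.32, adjusted p = 0.0167). Without KO library 1 the difference was 0.97 and no longer passed (adjusted p = 0.0837). Reads of the overlapping antisense gene Gm13261 (119 and 76 counts in KO, 104 and 47 in WT) could not be told apart from its own if the counting ignored strand, a setting not given in the sources used here.

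Grb10 and H19 were the maternally expressed genes that were higher in KO. Grb10 (chr11:11930508-12038683, minus strand) encodes an adaptor that restrains signalling from the insulin and IGF1 receptors. Its level was 339 and 218 CPM in KO and 131 and 152 CPM in WT, and the groups did not overlap (log2 0.98, SE 0.21, adjusted p = 0.0172). The call was lost when KO library 1 was left out (0.64, adjusted p = 0.16).

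H19 (chr7:142575529-142578143, minus strand), a long non-coding RNA that hosts miR-675, held 88 and 96 counts in KO and 17 and 26 in WT. These are 6.91 and 8.16 CPM against 1.40 and 2.62 CPM, with the KO libraries above (log2 1.92, SE 0.43, adjusted p = 0.0212). The call was lost without KO library 2 (1.80, adjusted p = 0.0842). Igf2, the fetal growth factor gene that shares the H19 enhancers and is expressed from the other copy, was listed at 0 in all 4 libraries. A count of 0 allows up to 0.122 CPM over the KO group and 0.136 CPM over the WT group, which covers counting error only, as all such limits and intervals here do.

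Phlda2 was the gene with the largest fall among the 35. It encodes a small pleckstrin homology protein known to limit placental growth (chr7:143501545-143503150, minus strand). Its level was 26.1 and 24.5 CPM in KO and 167 and 98.8 CPM in WT. The WT libraries differed from each other by 0.80 on the log2 scale and still lay far above the KO libraries (log2 -2.40, SE 0.26, adjusted p = 0.000857). Slc22a18, a transporter family gene next to it (chr7:143473736-143499334, plus strand), held 13 and 18 counts in KO and 42 and 52 in WT, or 1.02 and 1.53 against 3.45 and 5.24 CPM (log2 -1.75, SE 0.50, adjusted p = 0.049). This low-count call was lost under 6 of the other settings, among them those that left out the first KO library (-1.48, adjusted p = 0.257), the second (-2.06, adjusted p = 0.112) or WT library 2 (-1.45, adjusted p = 0.144). Both genes belong to the domain that the long non-coding RNA Kcnq1ot1 silences on the paternal copy. Kcnq1ot1 itself was at 155 and 116 CPM in KO and 130 and 111 CPM in WT (log2 0.17, SE 0.18, adjusted p = 0.608), with overlapping groups. Cdkn1c, a cyclin-dependent kinase inhibitor of the same domain, was at 18.6 and 16.1 CPM in KO and 20.3 and 12.2 CPM in WT and did not pass.

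Igf2r (chr17:12682406-12769664, minus strand) encodes the receptor that takes IGF2 to the lysosome. It was at 54.5 and 43.3 CPM in KO and 83.7 and 89.0 CPM in WT, with no overlap (log2 -0.82, SE 0.18, adjusted p = 0.0196). Without KO library 2 it did not pass (-0.66, adjusted p = 0.214). Airn, the antisense RNA that silences Igf2r on the paternal copy, held 0 and 0 counts in KO and 2 and 3 in WT and was not tested.

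Peg10 (chr6:4747306-4760517, plus strand) is a gene of retrotransposon origin needed for the placenta and was the paternally expressed gene that was lower. It was at 60.2 and 60.7 CPM in KO and 95.4 and 113 CPM in WT (log2 -0.78, SE 0.16, adjusted p = 0.0168). The KO libraries were nearly equal and both below WT. The call was lost when KO library 1 (-0.77, adjusted p = 0.127) or KO library 2 (-0.78, adjusted p = 0.117) was left out. Sgce, the sarcoglycan gene that starts beside it on the other strand, was at 3.38 and 2.04 CPM in KO and 6.17 and 7.05 CPM in WT and missed the threshold (log2 -1.28, SE 0.41, adjusted p = 0.0734). Ppp1r9a, the gene of an actin-binding scaffold protein in the same locus, was at 24.0 and 35.3 CPM in KO and 32.9 and 56.7 CPM in WT and did not pass (log2 -0.59, SE 0.28, adjusted p = 0.211). Asb4, an ankyrin repeat gene at the far side of the locus, held 1 and 2 counts in KO and 14 and 6 in WT and was not tested. The primitive endoderm and fibroblast marker sums given above were lower in KO too, and their part in the lower levels of Phlda2, Slc22a18, Igf2r and Peg10 was not tested.

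**Figure D2:**
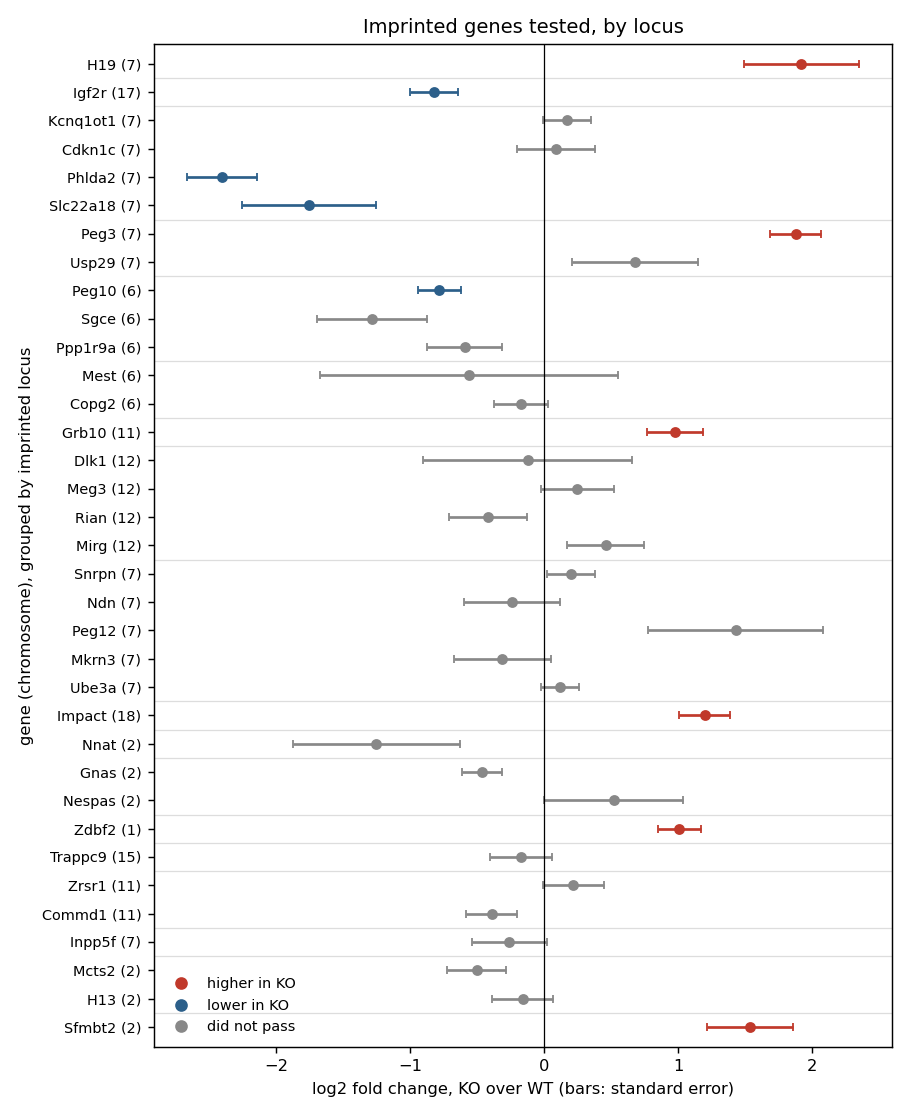
Log2 fold change of KO over WT (points) with the standard error (bars) for the 35 imprinted genes tested, grouped by locus, with the chromosome in brackets and the genes that passed in colour. Called genes lie between -2.40 (Phlda2) and 1.92 (H19), and Mest has the widest bar, 1.11 on the log2 scale.

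Mest was present in 3 libraries and nearly missing from 1 KO library, and it did not pass the test. Mest (chr6:30723547-30748465, plus strand) encodes a protein of the hydrolase fold family and is a standard marker of the paternal copy. Its counts were 720 and 2 in the first and second KO libraries and 639 and 305 in the WT pair, or 56.6, 0.17, 52.5 and 30.7 CPM. KO library 1 and the WT libraries lay within the range 30.7 to 56.6 CPM, and KO library 2 was far below all 3. The ratio of KO library 1 to KO library 2 was 333 (exact binomial 95% interval 91.8 to 2750). Among the 6198 tested genes with at least 300 counts in KO library 1, Mest was the 1 gene with at most 10 in KO library 2, and 0 genes had the reverse, with limits chosen after its values were seen. The pooled fold change was -0.56 (SE 1.11, adjusted p = 0.793). It was 0.44 without KO library 2 and -7.84 without KO library 1 (adjusted p = 9.26e-08), so a single library decides the value.

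None of the tested genes around Mest was nearly missing from KO library 2. Copg2, a coatomer gene on the other strand whose last 912 bases overlap the end of Mest, held 729 and 802 counts in KO and 712 and 829 in WT (57.3, 68.2, 58.5 and 83.5 CPM; log2 -0.17, SE 0.20, adjusted p = 0.635). Both genes end in this stretch, where 3' tags fall. Reads of Mest and Copg2 could therefore be shared if the counting ignored strand. The 2 nearest tested genes on each side that are not in the set, Tmem209, Cep41, 5330406M23Rik and Gm13835, did not pass. In KO libraries 1 and 2 Tmem209 was at 55.9 and 52.7 CPM, Cep41 at 13.5 and 10.6 CPM, 5330406M23Rik at 3.61 and 1.36 CPM and Gm13835 at 3.61 and 4.5 CPM. Mir335 within Mest had 0 counts in every library, but 3' tags of poly(A) RNA do not measure mature microRNAs. Of the 17 other paternally expressed genes tested, 12 were higher in KO library 1 than in KO library 2, with log2 ratios of KO library 1 to KO library 2 from -0.54 (Dlk1) to 1.45 (Peg12). Nespas (1.25), Sfmbt2 (0.99), Ndn (0.75), Mkrn3 (0.69) and Sgce (0.68) followed Peg12, while Peg3 (0.13) and Zdbf2 (-0.04) were nearly equal in both. Most of these 17 genes were also higher in WT library 1 than in WT library 2, with log2 ratios from -0.33 (Zdbf2) to 2.80 (Dlk1). Higher levels in library 1 were therefore not particular to the KO pair. The share over all tested genes was not counted, so these counts alone show no lean of the paternally expressed genes.

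**Figure D3:**
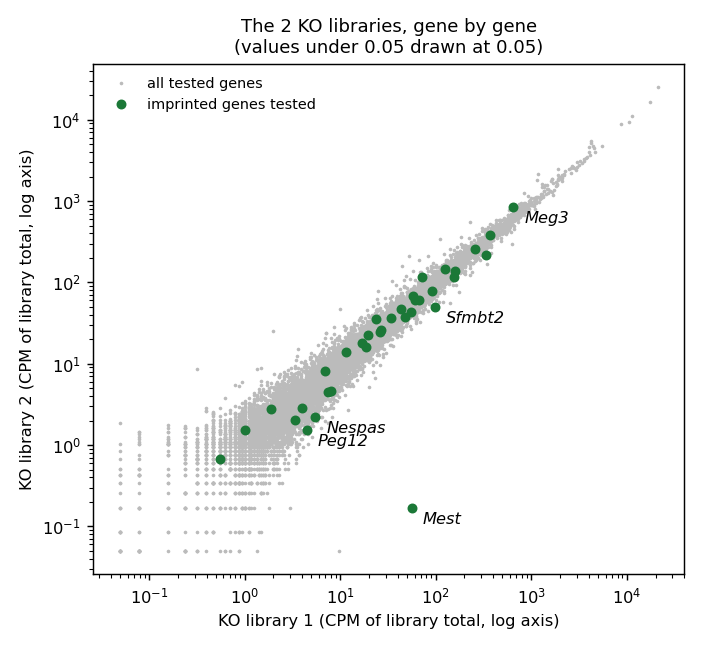
KO library 2 against KO library 1, in CPM of the library total on log axes, for all 14427 tested genes (grey) and the 35 imprinted genes (green). Most imprinted genes lie along the diagonal, and Mest sits far below it, at 56.6 in KO library 1 and 0.17 in KO library 2.

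The tested genes of the Dlk1-Meg3 locus varied more between the WT libraries than between the KO libraries. Of the 4 tested, 0 passed between the groups in edgeR or DESeq2, beside the 12.4% of all tested genes called. At an unadjusted p under 0.05 there were 0 as well. Meg3, the long non-coding RNA of the maternal copy, was at 651 and 844 CPM in KO and 419 and 851 CPM in WT (log2 0.25, SE 0.27, adjusted p = 0.611). Rian, which hosts small nucleolar RNAs, was at 42.9 and 46.7 CPM in KO and 39.0 and 81.9 CPM in WT (log2 -0.42, SE 0.29, adjusted p = 0.392). Mirg, which hosts microRNAs, was at 72.4 and 116 CPM in KO and 49.4 and 88.3 CPM in WT (log2 0.46, SE 0.29, adjusted p = 0.334). All 3 were lower in WT library 1 than in WT library 2, by log2 -0.98, -1.03 and -0.79. The KO libraries differed in the same direction, by log2 -0.38, -0.13 and -0.68, so Mirg varied nearly as much in KO. Dlk1, the paternally expressed gene of a Notch ligand-like protein, went the other way, at 54 and 5 counts in the first and second WT libraries (log2 2.80), and 24 and 33 in KO. Rtl1, the paternally expressed gene of retrotransposon origin, was listed at 0 in all libraries. Meg3 (0.82, adjusted p = 0.00366) and Mirg (0.91, adjusted p = 0.0153) passed as higher without WT library 2, and Rian passed as lower without WT library 1 (-0.85, adjusted p = 0.00607). For Meg3, Rian and Mirg, a call therefore rests on which WT library is kept.

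**Figure D4:**
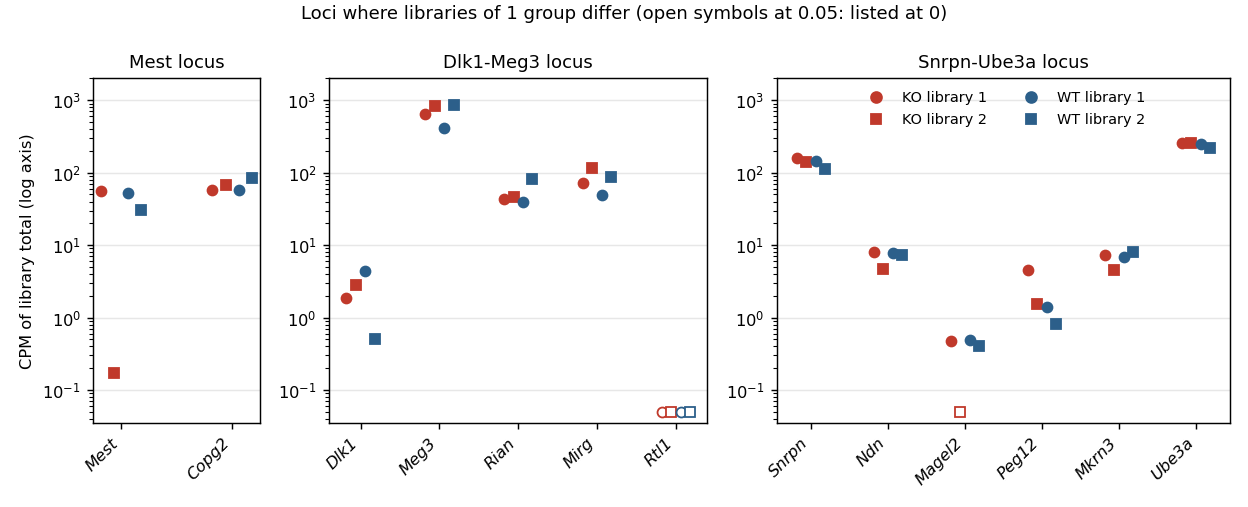
CPM of the library total (log axis) in each library for the genes of the Mest, Dlk1-Meg3 and Snrpn-Ube3a loci, with KO in red and WT in blue, library 1 as circles and library 2 as squares. Mest is near 0 in KO library 2 alone (0.17), while Meg3, Rian and Mirg are lower in WT library 1 (419, 39.0 and 49.4) than in WT library 2 (851, 81.9 and 88.3).

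At the Snrpn-Ube3a locus, 0 of 5 tested genes passed in edgeR or DESeq2, and 0 had an unadjusted p under 0.05, beside the 12.4% of all tested genes called. Snrpn, which encodes a spliceosomal protein, was at 159 and 139 CPM in KO and 146 and 113 CPM in WT (log2 0.20, SE 0.18, adjusted p = 0.514). Ube3a, a ubiquitin ligase gene known to be imprinted in neurons, was at 258 and 255 CPM in KO and 250 and 222 CPM in WT (log2 0.12, SE 0.14, adjusted p = 0.64). The 3 others lay below 10 CPM. Peg12 was at 4.48 and 1.53 CPM in KO and 1.40 and 0.806 CPM in WT. Ndn, a MAGE family gene (8.02 and 4.67 CPM in KO, 7.81 and 7.25 CPM in WT), and Mkrn3, a ring finger gene (7.39 and 4.5 CPM in KO, 6.82 and 7.96 CPM in WT), were also higher in KO library 1 than in KO library 2. Magel2, another MAGE family gene, held 6 and 0 counts in KO and 6 and 4 in WT.

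Gnas, which encodes the stimulatory G protein alpha subunit, was at 124 and 146 CPM in KO and 189 and 182 CPM in WT. The groups did not overlap, and the difference missed the threshold (log2 -0.46, SE 0.15, adjusted p = 0.0852). Its antisense RNA Nespas, at 5.5 and 2.21 CPM in KO and 3.04 and 2.32 CPM in WT, did not pass. Commd1, a gene of copper handling, was at 47.5 and 37.3 CPM in KO and 58.5 and 53.1 CPM in WT (log2 -0.39, SE 0.19, adjusted p = 0.22). Zrsr1, a splicing factor gene that lies within Commd1 on the other strand, was at 34.3 and 36.0 CPM in KO and 35.8 and 24.4 CPM in WT (log2 0.22, SE 0.23, adjusted p = 0.593). Mcts2, a retrogene inside H13 on the same strand, was at 27.0 and 26.0 CPM in KO and 42.5 and 32.2 CPM in WT (log2 -0.50, SE 0.22, adjusted p = 0.167). H13, which encodes a signal peptide peptidase, was at 19.6 and 22.4 CPM in KO and 20.5 and 26.7 CPM in WT (log2 -0.16, SE 0.23, adjusted p = 0.702). Reads of these nested pairs, and of Gnas with Nespas, could be shared. Trappc9 (vesicle traffic), Inpp5f (a phosphoinositide phosphatase) and Nnat (a membrane proteolipid), with means of 18.5, 14.0 and 1.04 CPM, did not pass either. Plagl1, a zinc finger gene (2 and 13 counts in KO, 3 and 2 in WT), was not tested. Nor were Peg13, a non-coding RNA within Trappc9, and Nap1l5, of the nucleosome assembly family (each 0 and 1 counts in KO, 1 and 0 in WT). Rasgrf1, the gene of a Ras exchange factor, was listed at 0 throughout.

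The genes flanking the 10 called members were read from the same fit, as the 2 nearest tested genes on each side that are not in the set, so that nearer imprinted members described above were passed over. The farthest, Gm12005, lay 2123396 bases from Grb10. Of 36 distinct flanking genes, 6 were higher and 3 lower, beside 7.42% and 4.96% of all tested genes, and 5 of 40 pairs were called in the direction of the imprinted gene. Beside Grb10, Ddc, the dopa decarboxylase gene and itself known to be imprinted, was at 81.9 and 73.2 CPM in KO and 24.7 and 17.6 CPM in WT (log2 1.87, SE 0.22, adjusted p = 0.00126). The antisense gene 1700042O10Rik, which overlaps Ddc, also passed as higher (log2 2.68, SE 0.39, adjusted p = 0.00345), while Cobl and the pseudogene Gm12005 on the other side did not. Reads of Ddc and 1700042O10Rik could be shared if the counting ignored strand, so their calls may not be separate. Beside Peg3, Aurkc was higher (log2 1.15, SE 0.25, adjusted p = 0.0189), and Zfp78, Zfp28 and Zfp264 did not pass. Beside Zdbf2, Adam23 was higher (log2 0.65, SE 0.17, adjusted p = 0.0353), on the same chromosome 1 with its raised median, the small nucleolar RNA Snora41 was lower, and Eef1b2 and Fastkd2 did not pass. Beside Peg10, Casd1 moved the opposite way, at 18.9 and 18.3 CPM in KO and 8.06 and 6.15 CPM in WT (log2 1.38, SE 0.28, adjusted p = 0.0141), with Gm44432, Gm26814 and Gm26736 not called. Beside H19, Tspan32 was higher and Ascl2 lower, and Ctsd and Mrpl23 did not pass. Beside Phlda2 and Slc22a18, Cd81, Tssc4, Nap1l4 and Cars did not pass, with log2 values from -0.07 to 0.27. The genes next to Igf2r (Agpat4, Map3k4, Pnldc1 and Mrpl18) and Impact (Gm7599, Osbpl1a, Zfp521 and Ss18) did not pass. Beside Sfmbt2, Rbm17 was lower and Kin, Itih5 and Pfkfb3 did not pass. Several of these flanking calls rest on single libraries. Aurkc was not called without KO library 2 (1.11), Snora41 without WT library 1 (-1.50), and Rbm17 without either KO library (-0.73 and -0.65) or the first WT library (-0.41).

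A second list of 45 genes reported as imprinted in mouse, outside the set, had 26 tested members, of which 6 were higher and 2 lower, with a median of 0.06. This is 30.8% called, beside 12.4% of all tested genes, while the share without overlap between the groups was 53.8%, beside 58.0%. The higher ones were Ddc, Casd1, Adam23, Dio3, Tspan32 and Atp10a. Ddc, Casd1, Adam23 and Tspan32, and the lower gene Ascl2, are also among the called flanking genes described above. Their values enter both counts, so the counts are not independent. Dio3, the thyroid hormone deiodinase gene at the distal end of the Dlk1-Meg3 locus, was at 4.95 and 13.7 CPM in KO and 2.88 and 0.806 CPM in WT (log2 2.29, SE 0.64, adjusted p = 0.0457). Its level varied within both groups. The lower ones were Dhcr7 (log2 -1.10, SE 0.25, adjusted p = 0.0216), a cholesterol synthesis gene, and Ascl2 (log2 -1.71, SE 0.41, adjusted p = 0.0262), a placental transcription factor gene. Ddc and Casd1 were called in each of the 4 fits that left out a library, and Atp10a in 0 of them (1.79 to 1.82). Dio3 (1.40) and Dhcr7 (-0.91) were not called without KO library 2, Tspan32 without KO library 2 (1.51) or WT library 2 (1.78), and Ascl2 without KO library 1 (-1.56) or KO library 2 (-1.86). The call of Adam23 was lost when either KO library (0.71 and 0.59) or the first WT library (0.49) was left out. Scaling to library totals also ended the edgeR calls of Dio3 (adjusted p = 0.0508), Tspan32 (adjusted p = 0.0516) and Atp10a (adjusted p = 0.0519).

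Factors that set or protect imprints were read from a list of 30 genes, 28 of them tested, of which 1 was higher and 3 lower (median -0.02). The share called, 14.3%, was near the 12.4% of all tested genes. Dnmt3l, the cofactor of de novo methylation that germ cells need to set imprints, was at 65.5 and 65.3 CPM in KO and 273 and 220 CPM in WT. The KO libraries were nearly equal and far below WT (log2 -1.92, SE 0.17, adjusted p = 0.000385). Zfp57, which encodes the zinc finger protein whose hexamer was searched above, was at 25 and 56.3 CPM in KO and 122 and 133 CPM in WT. KO library 1 was lower than KO library 2, and both were below WT (log2 -1.64, SE 0.31, adjusted p = 0.0116). Mest was nearly missing from KO library 2, the KO library with the higher Zfp57 level, and a link between Mest and Zfp57 was not tested. Dnmt3b, a de novo methyltransferase gene, was lower (log2 -0.76, SE 0.19, adjusted p = 0.0348), and Smchd1, a chromosomal ATPase gene with a role in imprinted silencing, was higher (log2 0.76, SE 0.20, adjusted p = 0.036). The fits without a library kept Dnmt3l and Zfp57 in 4 of 4, and Dnmt3b and Smchd1 in 1 of 4. Leaving out either KO library or the first WT library ended the calls of Dnmt3b (-0.89 and -0.64, and -0.52) and Smchd1 (0.72 and 0.82, and 0.53). Trim28, the corepressor that ZFP57 recruits (log2 -0.36, SE 0.13, adjusted p = 0.103), the maintenance methyltransferase gene Dnmt1 (log2 0.27, SE 0.15, adjusted p = 0.265) and its partner Uhrf1 (log2 0.09, SE 0.15, adjusted p = 0.749) did not pass. Zfp445, which encodes a second imprint-protecting zinc finger protein, was at 67.3 and 75.4 CPM in KO and 99.1 and 77.0 CPM in WT and did not pass. Whether these levels have a part in the imprinted genes' levels was not tested.

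**Figure D5:**
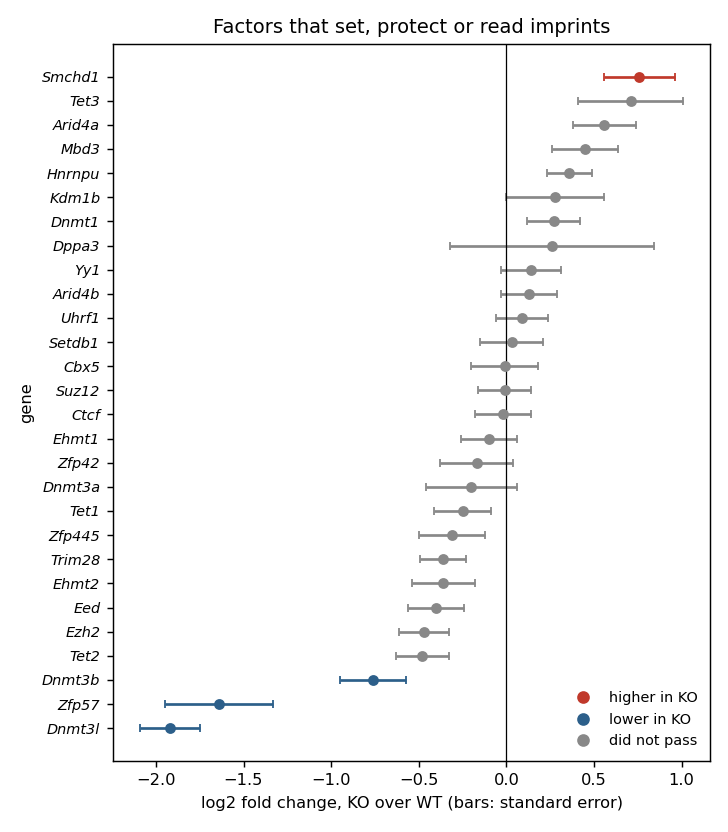
Log2 fold change of KO over WT (points) with the standard error (bars) for the 28 tested genes of factors that set, protect or read imprints, in order of fold change. Dnmt3l (-1.92) and Zfp57 (-1.64) lie apart at the lower end, and Dnmt3b and Smchd1 are the other 2 that passed.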

How the data were processed

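The study measured messenger RNA in 2 KO and 2 WT libraries. The authors deposited their values as a single table of raw counts, whole numbers without normalization, indexed by Ensembl gene. Per the labels' protocols, Trizol RNA went into QuantSeq 3' FWD libraries. Trim Galore and GRCm38 come from the submitters' processing notes. Which aligner, counter, strand setting and annotation were used is not given in the sources used here.

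Genes were named with GENCODE vM21, which held 55240 of 55421 identifiers. The quasi-likelihood F test of edgeR 4.0.16 (R 4.3.3, two-sided) was run on all 4 libraries with TMM scaling and filterByExpr, and p-values were adjusted by Benjamini-Hochberg over 14427 genes, with a threshold of 0.05. The biological coefficient of variation was 0.198, on 2 residual degrees of freedom. SE was obtained as the absolute log2 fold change over the root of F. Log2 ratios between libraries of the same group used edgeR's log2 CPM with TMM scaling and a prior count of 2. They are therefore smaller at low counts than ratios of the printed CPM. The Mest ratio of 333 was taken from CPM without a prior count. A floor of 3 counts is 0.236 to 0.302 CPM per library. The scripts were tested on simulated data.

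Members were taken by symbol, with no threshold on a value, but they, the gene lists and the alternatives were chosen with earlier results of these data known. Every imprinted member is named, with values per library where it passed or had a mean of at least 20 CPM, and further values for others where a locus is described. Of other lists, the members that passed are named (up to the 6 with the smallest p), with the 2 nearest tested genes outside the set on each side of a called member. Dnmt1, Uhrf1, Trim28, Zfp445, Pou5f1 and the flanks of Mest were chosen outside this rule, after their values were seen. Alternatives were DESeq2 1.42.0 (size factors, and its test), library totals, no filter, a mean of at least 10 CPM, the replicate number as a block, subtraction of the chromosome median, and each library left out.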

Additional observations from a re-analysis of the deposited data

How the results depend on the processing

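Of the 10 imprinted genes called, 4 (Peg3, Phlda2, Impact and Zdbf2) passed in every fit that tested them. The number of imprinted genes higher in KO was 6 with DESeq2 size factors, library totals, the DESeq2 test and no filter, and 5 with a mean of at least 10 CPM. The number lower was 3 to 5 under these. With each library left out in turn, where the lone library is assumed to vary like the other group, 4 to 8 were higher and 1 to 6 lower. Over all genes those fits called 556 to 1477 higher and 285 to 1011 lower. Without a filter 1193 genes were lower, and with a mean of at least 10 CPM, which leaves fewer genes to test, 636 were higher and 391 lower.

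The labels do not say if libraries with the same replicate number were made together. Over all tested genes the KO pair and the WT pair did not deviate together (correlation -0.0703). That value alone cannot show whether the libraries were paired. With the replicate block 638 genes were higher and 370 lower, and 5 imprinted genes were higher and 3 lower. Grb10 (0.95, adjusted p = 0.0504 in edgeR) and Slc22a18 (-1.76, adjusted p = 0.082) did not pass in the paired fit, and Dlk1 had the opposite sign (0.32). Slc22a18 also failed with library totals (adjusted p = 0.0527) and the DESeq2 test (0.0654). Sgce passed without a filter (adjusted p = 0.0306).

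Signs changed with a library left out for Mest (-7.84 to 0.44), Dlk1 (-0.94 to 2.21), Meg3 (-0.17 to 0.82), Rian (-0.85 to 0.18), Nespas (-0.27 to 1.03), Cdkn1c (-0.24 to 0.53), Kcnq1ot1 (-0.05 to 0.37), Zrsr1 (-0.05 to 0.54), Copg2 (-0.40 to 0.08), Ndn (-0.68 to 0.09), Mkrn3 (-0.70 to 0.01), Inpp5f (-0.50 to 0.01) and H13 (-0.33 to 0.02). Calls appeared without WT library 1 for Ppp1r9a (-0.92) and without WT library 2 for Gnas (-0.50) and Mcts2 (-0.70). The cause was not tested for any of these. The 10 imprinted genes that did not pass the low-count filter have no test. Outside the set, Atp10a was lost with DESeq2 size factors (adjusted p = 0.051 in edgeR) and the DESeq2 test (0.111), and Adam23 (0.0514) and Smchd1 (0.0541) at a mean of at least 10 CPM. With the replicate block, Smchd1, Adam23, Tspan32, Ascl2, Atp10a, Dhcr7, Dio3 and Rbm17 were not called (0.0521 to 0.135).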

Other observations

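Some imprinted genes and their regulators differed more between the KO libraries than most genes named above, apart from Mest. Dppa3, which encodes a protein that protects methylation in the zygote, was at 12 CPM in KO library 1 and 2.72 CPM in KO library 2, against 7.15 and 5.14 CPM in WT. Zfp264, next to Usp29, was at 1.49 and 8.75 CPM in KO and 4.60 and 4.94 CPM in WT. Plagl1, a zinc finger gene expressed from the paternal copy, held 2 counts in KO library 1 and 13 in KO library 2. Peg12 and Nespas were higher in KO library 1 than in KO library 2 by 1.45 and 1.25 on the log2 scale. The 119 microRNA genes inside Sfmbt2 together held 20 and 3 counts in KO and 3 and 8 in WT, too few to follow Sfmbt2 itself. These genes were chosen after their values were seen, and none of the differences within a group was tested.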
